A study of Mus musculus with 2 samples.

Results

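The semaphorins are secreted and membrane-bound guidance cues, the plexins are their receptors, and the neuropilins are co-receptors that help secreted semaphorins bind plexins. All protein-coding mouse genes named as a semaphorin, a plexin or a neuropilin were taken, which gave 31 genes of the 43346 in the gene tables and of 21474 protein-coding genes. They were 20 semaphorins, 9 plexins and 2 neuropilins. Their RNA was measured in whole hearts of newborn mice (postnatal day 0) of the strain B6NTac;B6NCrl/Lap, pooled from males and females. There was 1 group with 2 replicates, which the labels call separate isolates with the same donor label; replicate 1 was a pool of 15 hearts, and the number pooled in replicate 2 is not given. RNA over 200 nucleotides was depleted of ribosomal RNA and sequenced as stranded read pairs. No treatment, genotype or age was compared, so levels are described with the spread between the 2 replicates and without a test of any difference.

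Class 3 semaphorins are secreted, and most of them signal through a complex of a neuropilin with a class A plexin or with Plxnd1. Classes 4 to 7 are tied to the membrane and bind plexins directly. Plexins act on small GTPases and so change adhesion and the cytoskeleton. In the heart the family is known for septation of the outflow tract, patterning of vessels and placing of sympathetic nerves, and neuropilins also bind vascular endothelial growth factors.

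The libraries held 69946215 and 73615802 counts assigned to genes, of which the family took 99940 and 103738 (0.143% and 0.141%). All 6 cardiomyocyte markers were present, led by Actc1 at 5636 and 5468 TPM (abundance per transcript length, scaled to the library), so the defining markers of the labelled tissue were there. In bulk tissue, fewer cells of a type and less RNA per cell cannot be told apart. The cell type marker sums moved between the replicates in several lists. The 7 smooth muscle and pericyte markers were all higher in replicate 2 and summed to 334.0 and 674.6 TPM. The 7 epicardial markers summed to 45.6 and 99.9 TPM, the 8 endothelial markers to 254.7 and 238.6 TPM, and the 7 fibroblast markers to 499.1 and 624.0 TPM. The 9 lymphocyte and thymus markers summed to 11.1 and 1.15 TPM, with Cd3e at 0 in both.

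A gene counted as detected when each replicate had at least 1 TPM. By this rule 25 of the 31 members were detected, beside 47.1% of all protein-coding genes. The detected members were 15 of 20 semaphorins, 8 of 9 plexins and both neuropilins. Plexin RNA was the most abundant of the 3 roles, at 100.7 and 97.6 TPM summed over the 9 genes (99.1 ± 2.16, SD, n = 2). Semaphorins summed to 53.0 and 77.2 TPM (65.1 ± 17.1, SD, n = 2) and neuropilins to 27.0 and 27.5 TPM (27.2 ± 0.368, SD, n = 2). Plexin RNA thus exceeded semaphorin RNA 1.90-fold in replicate 1 and 1.27-fold in replicate 2. Plxnb2, Plxnd1 and Nrp1 alone held 53.5% and 41.4% of the family's TPM.

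The deposited TPM of a gene divides its counts by an effective length that depends on which transcripts were assigned, and this length differed between replicates for some members. A second scale was therefore computed, after the data had been seen, in which each gene kept the length of its complete coding transcript with the longest coding region in both replicates. On this single-length scale the semaphorins summed to 49.3 and 58.4 TPM, the plexins to 80.3 and 73.3 TPM and the neuropilins to 27.1 and 27.7 TPM. The order of the 3 roles was the same on both scales and in both replicates.

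**Figure D1:**
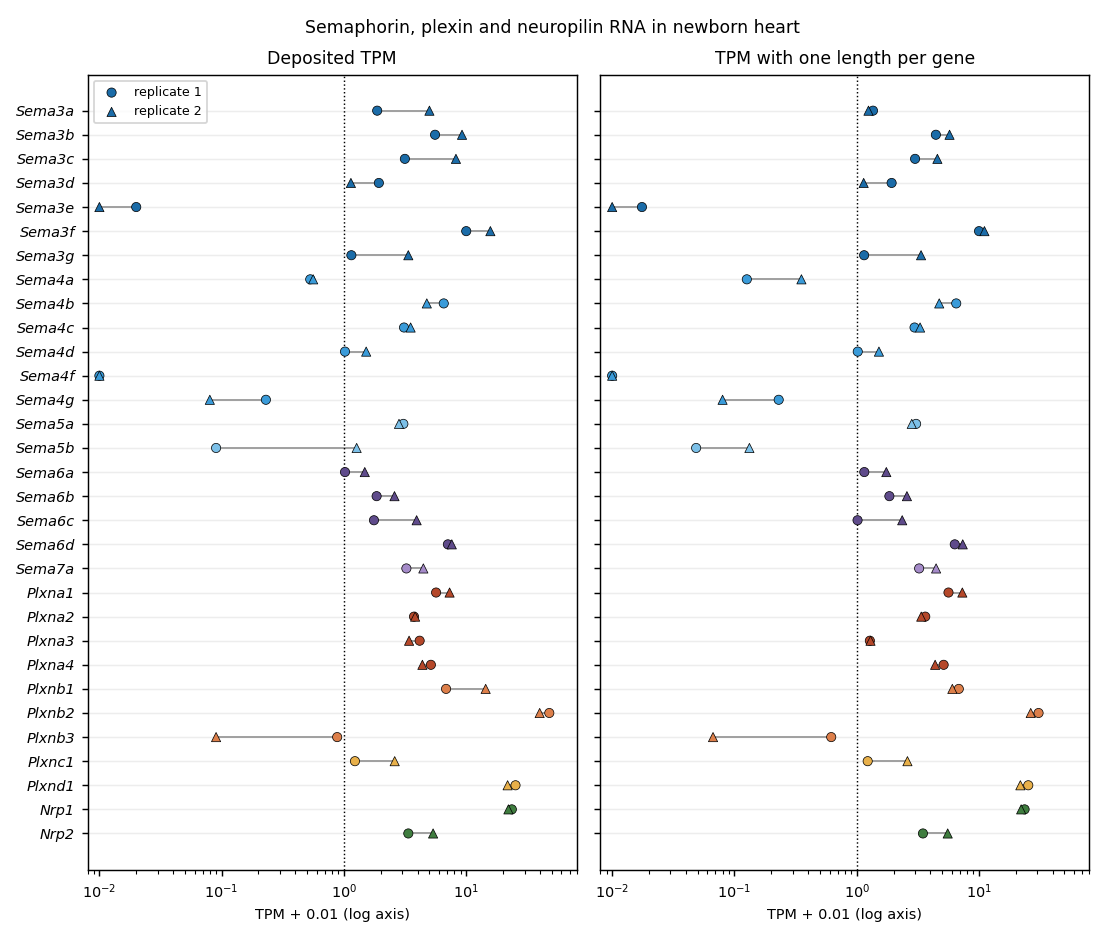
RNA level of each of the 31 members in replicate 1 (circles) and replicate 2 (triangles), as TPM + 0.01 on a log axis, coloured by class. The left panel holds the deposited TPM and the right panel TPM with a single length per gene; the dotted line marks 1 TPM. Plxnb2, Plxnd1 and Nrp1 lie farthest right in both panels, Sema3e and Sema4f lie at the left edge, and the gap between replicates for Sema3a and Plxnb1 closes in the right panel.

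Among the class 3 ligands, Sema3f was highest. Sema3f (chromosome 9, 107681500 to 107710475, GRCm38), a ligand that acts mainly through Nrp2, had 9.99 and 15.75 TPM from 2211 and 2567 counts. Sema3b, its neighbour on the chromosome (107597674 to 107609229), had 5.55 and 9.23 TPM from 1459 and 1982 counts. Both were higher in replicate 2, by log2 0.63 and 0.70 in TPM but by 0.14 and 0.36 in CPM (counts scaled to the library total and not divided by length). Their effective lengths were 2097 and 1472 bases for Sema3f and 2492 and 1939 bases for Sema3b. On the single-length scale Sema3f averaged 10.5 ± 0.751 TPM and Sema3b 5.08 ± 0.921 TPM (SD, n = 2). The lead of Sema3f over the other class 3 genes thus held on both scales in each replicate.

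Sema3c, which neural crest cells of the outflow tract respond to, had 3.14 and 8.23 TPM from 1643 and 2628 counts. Sema3a, a repellent for sympathetic axons, had 1.86 and 4.99 TPM from 802 and 773 counts. The 2 genes therefore looked alike in TPM, each more than 2-fold higher in replicate 2, while the counts of Sema3a were slightly lower there. On the single-length scale Sema3c had 2.99 and 4.56 TPM and Sema3a had 1.35 and 1.24 TPM.

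Sema3d, known for guiding pulmonary vein endothelium, had 1.92 and 1.13 TPM from 1265 and 780 counts, so replicate 1 was the higher one. Sema3g, a ligand made by arterial endothelium, had 1.14 and 3.35 TPM from 513 and 1578 counts, so replicate 2 was the higher one. Each has 1 annotated transcript in these tables, and their effective lengths did not enter the difference. Sema3e, the ligand that binds Plxnd1 without a neuropilin, had 6 counts in replicate 1 and 0 in replicate 2. It was the class 3 gene that was not detected. Sema3d, Sema3a, Sema3e and Sema3c lie on chromosome 5 in this order, from 12383385 to 17730268 (GRCm38), so the undetected gene sits between detected neighbours.

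Of the 6 class 4 semaphorins, 3 were detected. Sema4b had 6.54 and 4.75 TPM from 2421 and 1844 counts. Sema4c, a ligand of Plxnb2, had 3.09 and 3.50 TPM from 1127 and 1312 counts. Sema4d, the ligand of Plxnb1 that is also known from immune cells, had 1.01 and 1.51 TPM from 448 and 701 counts and lay close to the threshold. Sema4a had 36 and 111 counts (0.52 and 0.55 TPM) and Sema4g 99 and 34 counts (0.22 and 0.07 TPM). Sema4f, described mainly in neural tissue, had 0 counts in both replicates, which allows up to 3 counts per library.

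Sema5a, a membrane semaphorin with thrombospondin repeats, had 3.05 and 2.81 TPM from 3385 and 3269 counts. Its paralog Sema5b had 18 and 59 counts. In replicate 2 these gave 1.26 TPM, because 56 of the 59 counts were assigned to Sema5b-203, a processed transcript of 694 bases, and on the single-length scale Sema5b had 0.0386 and 0.123 TPM. The glycolipid-anchored Sema7a, a ligand of Plxnc1 and of integrins, had 3.23 and 4.45 TPM from 1024 and 1482 counts.

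All 4 class 6 semaphorins, transmembrane ligands of class A plexins, were detected. Sema6d led the class at 7.07 and 7.61 TPM from 3967 and 4837 counts, and its replicates lay close together. Sema6b had 1.84 and 2.58 TPM, Sema6c 1.75 and 3.92 TPM and Sema6a 1.01 and 1.47 TPM. In CPM all 4 were higher in replicate 2, by log2 0.21 for Sema6d, 0.47 for Sema6b, 0.59 for Sema6a and 1.20 for Sema6c. Across all genes at a mean of 1 TPM, 50.0% were higher in replicate 2 on that scale. That share is set by the centring on the median of those genes and is not a measured background.

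The Sema6d transcripts differ by internal coding exons that lie next to each other in the gene, and these are shown because the exon shares were steadier than the shares of single transcripts. Both lie on the plus strand of chromosome 2 (GRCm38), the first at chr2:124660705-124660761 (57 bases) and the second at chr2:124662204-124662371 (168 bases). Each is printed from the GENCODE M21 transcript sequence with the exon in capitals and the 30 spliced bases on either side in lower case.
Sema6d 57-base exon: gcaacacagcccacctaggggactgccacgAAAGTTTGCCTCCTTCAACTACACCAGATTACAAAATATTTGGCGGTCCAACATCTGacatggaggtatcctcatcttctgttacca
Sema6d 168-base exon: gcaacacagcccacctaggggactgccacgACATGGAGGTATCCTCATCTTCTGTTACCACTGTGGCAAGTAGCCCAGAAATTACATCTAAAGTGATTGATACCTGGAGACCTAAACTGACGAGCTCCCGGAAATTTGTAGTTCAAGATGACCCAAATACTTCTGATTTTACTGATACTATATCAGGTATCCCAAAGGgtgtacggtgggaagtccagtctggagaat
The 3' flank of the 57-base exon is the start of the 168-base exon, because the transcript it was read from, Sema6d-206, holds both. Transcripts with the 57-base exon held 62.4% and 61.5% of the gene's TPM. Those with the 168-base exon at exactly the bounds given held 62.5% and 53.2%. By contrast Sema6d-202 went from 0% to 34.8% of the TPM and Sema6d-203 from 28.9% to 0%. Single transcripts thus switched, while most of the gene's RNA was assigned to forms with each exon in both replicates. Sema6d-207, with 28.8% and 8.27% of the TPM, was not counted with the 168-base exon. Its coding region has 3207 bases, against 3219 for Sema6d-206. Whether it holds a form of that exon with other bounds was not tested.

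Plxnb2, a receptor for class 4 semaphorins, had the highest level of the family (chromosome 15, 89155549 to 89180788, GRCm38). It had 47.8 and 39.9 TPM (43.8 ± 5.6, SD, n = 2) from 19789 and 17909 counts. Its range did not overlap that of the next member, Plxnd1. Part of its TPM came from Plxnb2-205, a processed transcript of 841 bases that held 33.1% and 36.7% of the gene's TPM but 920 and 896 of its counts. On the single-length scale Plxnb2 had 30.7 and 26.5 TPM, still above Plxnd1 in each replicate.

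Its relative Plxnb1, the receptor of Sema4d, had 6.83 and 14.41 TPM from 5998 and 5568 counts. The TPM was thus higher and the counts slightly lower in replicate 2, and on the single-length scale Plxnb1 had 6.83 and 6.05 TPM. Plxnb3, a receptor of Sema5a, had 368 and 35 counts (0.87 and 0.08 TPM) and was not detected by the rule. The log2 difference of replicate 2 minus replicate 1 was -3.22 in CPM and -2.45 in TPM, with deposited intervals that did not overlap. The lymphocyte and thymus markers given above also were lower in replicate 2, and the Schwann cell and neuron markers summed to 3.92 and 5.31 TPM, with 1 of 10 detected and Dbh at 0.00 TPM. Their part in the Plxnb3 values was not tested.

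Plxnd1, the endothelial plexin needed for outflow tract and vessel patterning, had 25.3 and 21.8 TPM (23.5 ± 2.48, SD, n = 2) from 17671 and 15973 counts. All of it was assigned to the same complete coding transcript. Per effective base it exceeded its ligand Sema3e 2188-fold in replicate 1, where Sema3e had 6 counts. All 6 were assigned to Sema3e-202, a retained-intron transcript whose length the ratio used, and 0 to the coding Sema3e-201. In replicate 2 Sema3e had 0 counts, which allows up to 3, against the 15973 of Plxnd1. Plxnc1, the receptor of Sema7a, had 1.22 and 2.59 TPM from 871 and 1938 counts.

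All 4 class A plexins, the usual partners of neuropilins, were detected at moderate levels. Plxna1 had 5.66 and 7.30 TPM from 5183 and 7063 counts, and Plxna4 had 5.13 and 4.37 TPM from 6824 and 6090 counts. Plxna2, which takes part in outflow tract septation, had 3.73 and 3.81 TPM from 4117 and 4008 counts. These 3 genes differed between replicates by at most log2 0.37 on either scale. Plxna3 had 4.15 and 3.40 TPM, but its counts were 893 and 948 and its single-length level was 1.27 and 1.29 TPM. Plxna3-203, a retained-intron transcript of 984 bases, held 40.7% and 69.4% of its TPM. The 3 antisense genes annotated at Plxna4 had 0 counts in both replicates. Genes of the same strand within Plxna2 (Gm37783, Gm37674 and Gm38036) had 21 to 163 counts per library, so the split of reads between them and Plxna2 is uncertain.

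Nrp1, co-receptor of Sema3a and of vascular endothelial growth factor, had 23.6 and 22.1 TPM (22.9 ± 1.05, SD, n = 2) from 13997 and 13768 counts. Nrp2, co-receptor of Sema3f, had 3.35 and 5.35 TPM (4.35 ± 1.41, SD, n = 2) from 2225 and 3720 counts. Nrp1 was the higher one in both replicates, and the ranges did not overlap.

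Nrp2 is made as membrane forms with different transmembrane and cytoplasmic ends, set by the choice of the last coding exon, and some forms carry an added exon just before it. These sequences are shown because transcripts that hold them took different shares in the replicates. The added exon of 51 bases lies at chr1:62812534-62812584. The coding part of the distal last exon spans chr1:62815333-62815634, and that of the proximal last exon spans chr1:62795709-62795986 (GRCm38, plus strand). Capitals mark the added exon whole and the first 90 bases of each last exon, all from GENCODE M21 transcripts, and lower case marks 30 flanking spliced bases.
Nrp2 51-base exon: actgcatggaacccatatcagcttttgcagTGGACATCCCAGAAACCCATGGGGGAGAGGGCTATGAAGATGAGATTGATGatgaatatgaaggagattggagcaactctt
Nrp2 distal last exon: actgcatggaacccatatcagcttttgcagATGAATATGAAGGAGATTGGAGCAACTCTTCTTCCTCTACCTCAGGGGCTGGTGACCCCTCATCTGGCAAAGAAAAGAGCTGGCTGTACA
Nrp2 proximal last exon: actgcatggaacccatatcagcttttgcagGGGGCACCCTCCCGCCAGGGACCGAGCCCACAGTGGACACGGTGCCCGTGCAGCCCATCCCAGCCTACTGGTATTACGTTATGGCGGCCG
All 3 follow the same 30 bases of the preceding exon. In the transcript it was read from, Nrp2-202, the 51-base exon runs on into the distal last exon. The first 30 bases of that last exon form its second flank. The distal and proximal last exons are alternative ends of the same coding sequence.

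Transcripts that ended in the distal last exon held 89.2% and 73.0% of Nrp2 TPM, and those that ended in the proximal one held 10.8% and 26.1%. The distal end was the major form in both replicates. The authors' posterior mean estimates gave 88.7% and 72.3% for the distal end. Transcripts with the 51-base exon held 28.2% and 5.6% of the TPM, from 605 and 202 estimated counts. For single transcripts the estimates were less settled. Nrp2-203 had 0.01% of replicate 2 in the maximum likelihood estimate and 27.0% in the posterior mean.

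Ranked by mean TPM, the members did not form a strict order. In 26 of the 30 steps from a member to the next, the replicate ranges overlapped, and in 24 of 30 on the single-length scale. The steps that separated on both scales were Plxnb2 above Plxnd1 and Nrp1 above Sema3f. The lower part of the list, from Sema3f down to Sema6a, was thus mostly unresolved between neighbours.

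To set receptors beside their ligands and paralogs, 20 pairs were compared as the log2 ratio of TPM + 0.1 within each replicate. A ratio was taken as past the limit where its size exceeded 2.15 in both replicates. That is the size that 95% of single genes at a mean of 1 TPM stayed under when replicate 2 was compared with replicate 1. It is a yardstick from single genes between libraries and does not measure the error of a ratio between different genes. On the TPM scale 8 of the 20 pairs were past this limit, and the same 8 were among the 12 that passed the single-length limit of 1.75. Plxnb2 exceeded Sema4c by 3.91 and 3.47, and Plxnb1 exceeded Sema4d by 2.64 and 3.17. Both class B plexins therefore outweighed the class 4 ligand named with them.

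Plxnd1 exceeded Plxna2 by 2.73 and 2.49, and Nrp1 exceeded Plxna2 by 2.63 and 2.51. Nrp1 and Plxnd1 themselves differed by -0.10 and 0.02, the closest match of the receptor pairs. Nrp1 exceeded Nrp2 by 2.78 and 2.03, past the limit in 1 replicate on the TPM scale and in both on the single-length scale. Sema6d exceeded Sema6a by 2.69 and 2.30, while its level was near that of its receptor Plxna1 (-0.32 and -0.06 for Plxna1 over Sema6d). The other 3 pairs past the limit set Sema3d, Sema3g and Plxnd1 against Sema3e, and their ratios depend on the added 0.1 because Sema3e was at or near 0. Plxnc1 was below Sema7a by -1.33 and -0.76, within the limit.

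**Figure D2:**
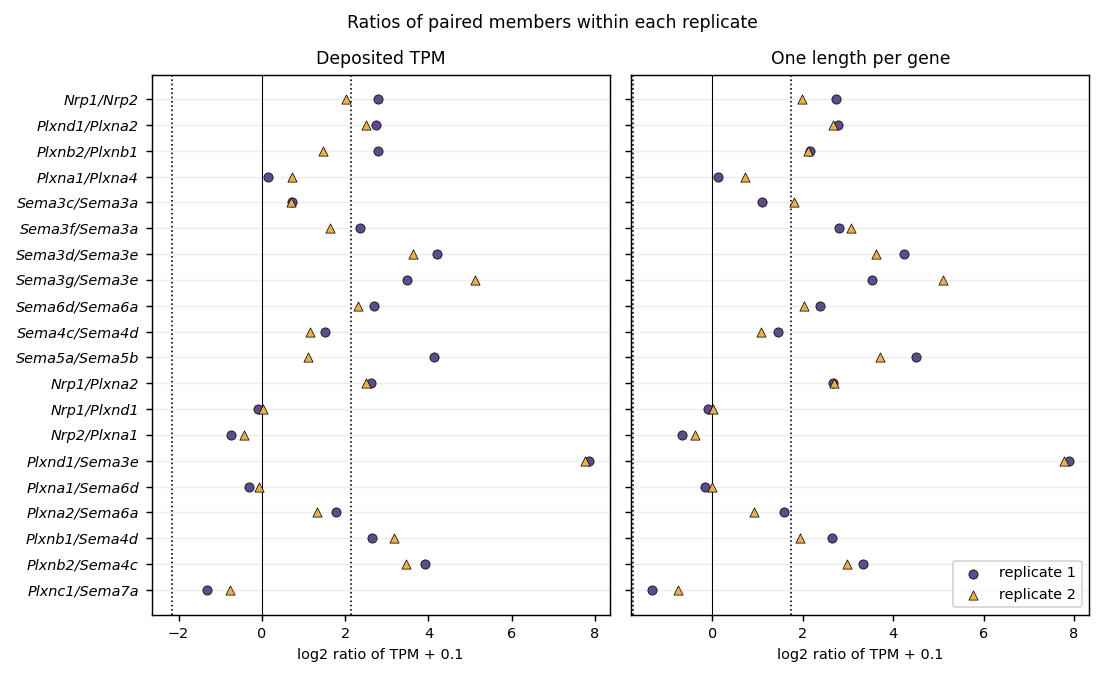
Log2 ratio of TPM + 0.1 for the 20 pairs of members, replicate 1 as circles and replicate 2 as triangles, with deposited TPM on the left and a single length per gene on the right. Dotted lines mark the limits of 2.15 and 1.75. Nrp1/Plxnd1 and Plxna1/Sema6d lie near 0, and Plxnb2/Sema4c and Plxnd1/Plxna2 lie past the limit in both panels.

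Differences between the replicates are those of 1 library against the other. At a mean of 1 TPM, 6 of 25 members were 2-fold or more higher in replicate 2 by TPM, beside 10.1% of all genes at that mean, and 0 were 2-fold lower, beside 8.9%. They were Sema3a, Sema3c, Sema3g, Sema6c, Plxnb1 and Plxnc1. In CPM 3 of 25 were 2-fold higher, beside 7.83% of all genes, and 0 were 2-fold lower, beside 6.69%. These 3 were Sema3g (log2 1.53), Sema6c (1.20) and Plxnc1 (1.07). In TPM with a pseudocount of 1, Sema6c (0.82) and Plxnc1 (0.67) were no longer 2-fold apart. Between TPM and CPM, both with 0.1 added, Sema3a changed from 1.35 to -0.13, Plxnb1 from 1.04 to -0.18, and Sema3c from 1.34 to 0.60.

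**Figure D3:**
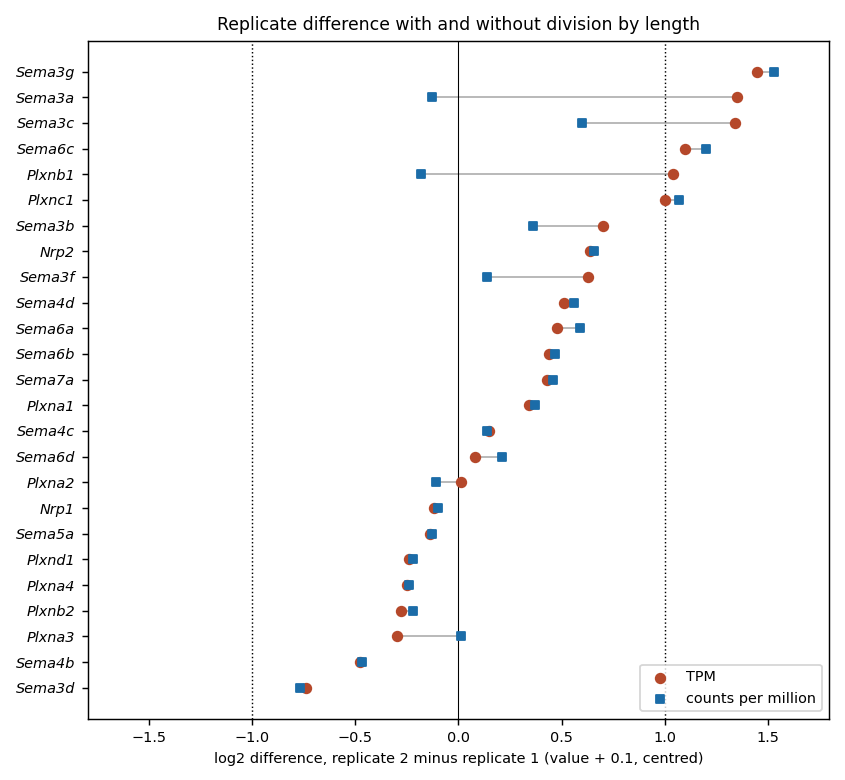
Log2 difference of replicate 2 minus replicate 1 for the 25 members at a mean of 1 TPM or more, in TPM (red circles) and in CPM (blue squares), with 0.1 added and the median of all genes at that mean removed. Dotted lines mark 2-fold. Sema3a and Plxnb1 pass 2-fold in TPM and lie just below 0 in CPM, while Sema3g, Sema6c and Plxnc1 pass it in both.

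The effective length of 5 of the 25 members differed 1.25-fold or more between replicates, beside 22.2% of protein-coding genes at that mean. Sema3a had 4092 and 1400 bases, Plxnb1 8313 and 3488, and Sema3c 4957 and 2883, besides Sema3f and Sema3b above. In each of these 3 a short model took a large share in replicate 2 and none in replicate 1. Sema3a-203, an incomplete coding model of 400 bases, held 51.7% of Sema3a TPM with 32 counts. Plxnb1-202, an incomplete coding model of 585 bases, held 59.4% of Plxnb1 TPM with 282 estimated counts. Sema3c-204, a model marked for nonsense-mediated decay with 1142 bases, held 52.2% of Sema3c TPM with 406 estimated counts.

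By contrast the lengths of Sema3g, Plxnc1 and the other genes with 1 expressed transcript were the same in both replicates to within 1 base. The higher counts of Sema3g, Sema6c and Plxnc1 in replicate 2 stood beside the higher smooth muscle and pericyte, epicardial and fibroblast sums given above. Endothelial markers summed to nearly the same level in both. The epicardial list was split. In CPM 5 of its 7 markers were higher in replicate 2, with Krt8 at 4.53 and 31.4 TPM. Upk3b (18.3 and 16.8 TPM) and Tbx18 (4.49 and 3.91 TPM) were lower. The part of any of these cell types in the values of Sema3g, Sema6c and Plxnc1 was not tested. The deposited intervals of the TPM did not overlap between replicates for 23 of the 31 members, 14 higher and 9 lower in replicate 2, beside 27.2% of all genes. Among members at a mean of 1 TPM it was 21 of 25, beside 73.3% of all genes at that mean. These intervals cover estimation from the reads of each library and not the difference between pools.

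Of the 25 members at a mean of 1 TPM, 19 had more than 1 annotated transcript. The transcript with the highest share was the same in both replicates for 12 of 19, beside 66.2% of protein-coding genes. The leading transcript by mean share was a complete coding one for 17 of 19, beside 85.2%; the others were Plxna3 and Sema3a. The median member had 95.7% and 96.3% of its TPM in complete coding transcripts, beside 93.0% and 92.85% for the median protein-coding gene. Plxnd1, Plxnc1 and Sema4d had all of it there, Plxna3 had 23.1% and 30.6%, and Sema3a had 65.0% and 11.0%. Counted by reads, 75.5% and 80.8% of Plxna3 and 94.7% and 94.99% of Plxnb2 fell in complete coding transcripts, since short models hold more TPM per count.

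**Figure D4:**
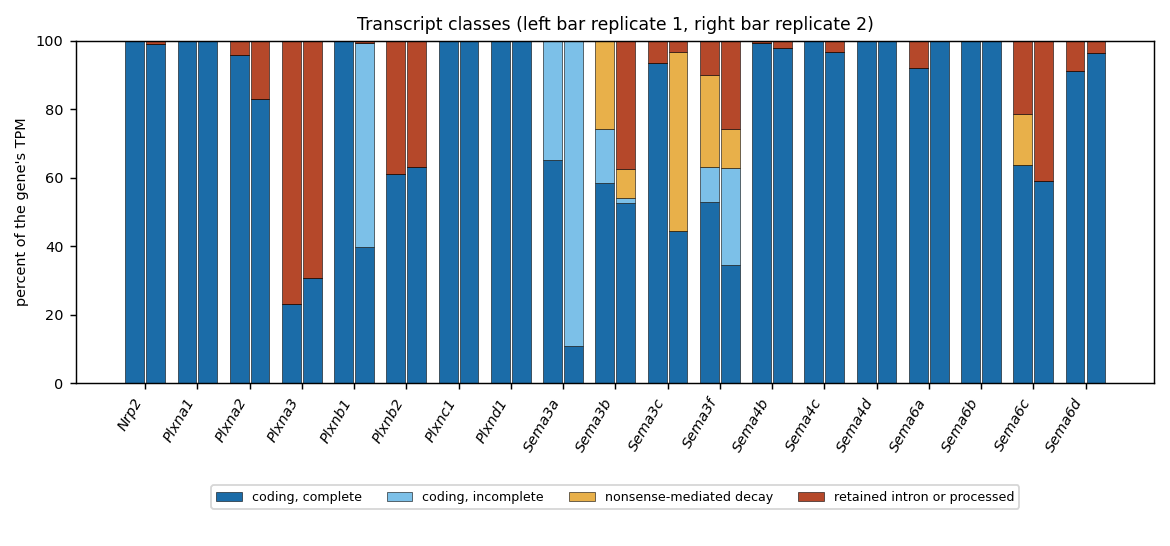
Percent of each gene's TPM in complete coding, incomplete coding, nonsense-mediated decay and retained-intron or processed transcripts, for the 19 members with more than 1 transcript; the left bar of each pair is replicate 1 and the right bar replicate 2. Plxnb1 and Sema3c change from nearly all complete coding in replicate 1 to 39.8% and 44.4% in replicate 2, while Plxnd1 and Plxnc1 stay at 100%.

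Lists of genes that act with the family were read by the same rule, which detected 47.1% of all protein-coding genes. Of 16 co-receptors and shared ligands 9 were detected, led by the integrin subunit Itgb1 (82.6 and 63.4 TPM), Vegfa (31.1 and 50.7 TPM), which binds Nrp1, and its receptor Kdr (13.2 and 14.8 TPM). Vegfc, the growth factor bound by Nrp2, had 3.71 and 1.57 TPM from 624 and 277 counts and was more than 2-fold lower in replicate 2, while Nrp2 was higher there. Met, a receptor that associates with class B plexins, had 2.76 and 0.70 TPM, from 494 and 507 counts that hardly differed.

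Of 14 kinases and cytoplasmic partners 11 were detected, led by the collapsin response mediators Dpysl3 (49.6 and 43.3 TPM) and Dpysl2 (27.5 and 26.4 TPM) with the actin oxidase Mical2 (43.7 and 35.9 TPM) between them. Among the 13 of them at a mean of 1 TPM, 0 were 2-fold apart in TPM, beside 19.0% of all genes at that mean. Dpysl5 was 2-fold lower in CPM (log2 -1.60), beside 6.69% of all genes at that mean, but higher in TPM (0.96 and 1.25). Below that mean, Dpysl4 had 180 and 9 counts (1.08 and 0.03 TPM). All 6 proteases that cut semaphorins or neuropilins were detected, led by Furin (20.6 and 17.9 TPM), Mmp14 (14.9 and 18.8 TPM) and Adam17 (4.61 and 5.01 TPM).

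In the other guidance families the same rule detected 10 of 22 Ephs and ephrins, 4 of 7 Slits and Robos and 4 of 9 netrins and netrin receptors. The semaphorin family had 25 of 31, and all protein-coding genes 47.1%. Their highest genes were Ephb4 (29.6 and 26.2 TPM), Ntn1 (35.5 and 30.9 TPM) and Robo4 (7.17 and 8.12 TPM). Plxnb2 was above each of these in deposited TPM. On the single-length scale Plxnb2 had 30.7 and 26.5 TPM, and whether it stayed above these genes on that scale was not tested. In the Eph list Efna4 (1.89 and 0.72 TPM) and Ephb6 (1.47 and 0.57 TPM) were 2-fold lower in replicate 2. They were 2 of the 13 Eph and ephrin genes at a mean of 1 TPM, beside 8.9% of all genes at that mean. Among the 4 Slit and Robo genes and the 5 netrin genes at that mean, 0 were 2-fold apart in TPM, beside 19.0% of all genes. Unc5a was 2-fold lower in CPM (log2 -1.40), beside 6.69% of all genes at that mean, but higher in TPM (0.97 and 1.45). Below that mean, Slit1 had 0 and 83 counts and Dcc 104 and 15 counts. These counts are a description, and the difference between families was not tested.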

How the data were processed

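Members and gene lists were chosen with earlier results of these data known. Gene and transcript tables with the column names of RSEM were used as the authors deposited them, made on mm10 with annotation M4 per the deposited read-me notes; which aligner and versions they used is not given in the sources used here. Per the file headers, the deposited values are expected counts, TPM, FPKM, posterior means, effective lengths, the percent of a gene's TPM per transcript, and interval bounds (unit treated as a signal) of unstated level. Gene types, positions and transcript sequences came from GENCODE M21 (GRCm38).

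Detection was 1 TPM in both replicates. Replicate differences were taken as log2 of TPM or CPM plus 0.1, minus the median over genes at a mean of 1 TPM (0.022 in TPM and 0.002 in CPM). With 1 group of 2 replicates no test between groups was made; an exact permutation test of 2 against 2 cannot fall under 0.33. CPM, counts scaled to the library total, was computed from the deposited expected counts over genes, with 69946215 and 73615802 counts, and a count of 0 allows up to 3 counts, for counting error only. The single-length scale was added after seeing the data.

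Every member was named or counted. From the lists of partners and other guidance families, the 3 genes with the highest mean TPM were eligible, with each gene 2-fold apart in TPM; markers were given as sums, with the leading genes. Of the 10 listed netrin genes, 9 matched the tables. Macrophage markers summed to 33.2 and 36.7 TPM and erythroid and platelet markers to 3125 and 3753 TPM. Alternatives covered thresholds, pseudocounts, scaling by TMM, estimates, units and replicates. Tools were Python 3.11.15, numpy 2.4.6, pandas 2.3.3, matplotlib 3.10.9, R 4.3.3 and edgeR 4.0.16, which gave TMM factors of 1.00052 and 0.99948 on rounded expected counts and no test. Protein sequences were not used here, and 1 list and some marker genes are not reported here.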

Additional observations from a re-analysis of the deposited data

How the results depend on the processing

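No paired analysis was possible because there is 1 group of 2 replicates. Of the values at the level of the family, 87 alternatives stayed within the spread or within 1.5 times the count and 17 moved. Detected semaphorins were 8 at a threshold of 2 TPM. Rescaled over protein-coding genes, the mean sums were 194.3 (semaphorins), 296.2 (plexins) and 81.3 TPM (neuropilins), and in CPM, which keep gene length, 338.8, 845.5 and 234.7. With a single length per gene plexins averaged 76.8 TPM. With the limit at the 99th percentile 1 pair passed. Members 2-fold higher in replicate 2 were 3 with a pseudocount of 1, with TMM factors, in CPM and with a single length, and 2 with a filter at 5 TPM. The 3 were not the same genes: with a pseudocount of 1 they were Sema3a (1.05), Sema3c (1.14) and Sema3g (1.00), and with the other settings Sema3g, Sema6c and Plxnc1. With posterior means Plxnc1 (0.91) was under 2-fold, and Sema6c fell just short of it. With no filter 1 was 2-fold lower, Plxnb3. At 5 TPM, which left 9 members with several transcripts, 5 kept the same leading transcript in both replicates and 9 had a complete coding one. Sema3a reversed to -0.13 in CPM, -0.12 with TMM factors and -0.12 with a single length, and Plxnb1 to -0.18 in all 3. With either replicate left out, detected members ranged from 25 to 26, semaphorins from 15 to 16, pairs past the limit from 8 to 12, and complete coding leaders from 13 to 18. Whether the leading transcript is the same in both replicates has no value with 1 replicate. With 2 pools, spread between hearts is not measured, and depth limits the genes under 100 counts in each library (Sema3e, Sema4f, Sema4g and Sema5b).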
